A study of Canis lupus familiaris with 4 samples.

Results

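Weak shared peaks are sites where both TWIST1 ChIP-seq experiments listed a peak at the same place, but where at least 1 of the 2 peaks fell short of q ≤ 0.05. The members were chosen by overlap (1 bp or more between a peak of replicate 1 and a peak of replicate 2) and by the q values of the peaks. Peaks starting before base 250000 of a chromosome were left out. Of the 4867 overlapping pairs outside those chromosome ends, 2142 (44.0%) were members, and the other 2725, called strong shared pairs below, had q ≤ 0.05 in both replicates. The members comprised 828 pairs below the threshold in both replicates, 607 below it in replicate 1 only and 707 below it in replicate 2 only. They merged into 2130 separate loci and, summed over pairs, spanned 698 kb of the dog genome build CanFam3.1.

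Both TWIST1 libraries came from MDCK cells, an epithelial line from dog kidney, modified to express human TWIST1 constitutively, grown under puromycin selection and described as mesenchymal. Chromatin was crosslinked in 1% formaldehyde for 10 min and precipitated with an anti-TWIST1 monoclonal antibody, whose lot is given for replicate 2 and listed as unknown for replicate 1. The 2 experiments are called independent in the series' design text, and each also had an input library, which here enters only through the background of the peak statistics. Parental cells were not analysed here, so no peak has been set against cells without the transgene.

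TWIST1 belongs to the basic helix-loop-helix family of transcription factors and binds E-box motifs as a dimer, with itself or with E proteins such as TCF3 and TCF12. It is known for driving epithelial cells towards a mesenchymal state and for its part in the development of head mesenchyme. In ChIP-seq, sites where a factor is bound weakly or in few cells give low pileups of fragments, which overlap in size with fluctuations of the background. Recurrence in a second experiment is one of the few measurements available on such sites.

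The threshold fell at low fragment numbers. Each list holds a fold enrichment, which is the ratio of the pileup (the number of overlapping fragments at the summit) to the local background, after 1 is added to each. Where the background was at its genome-wide minimum (2.03 fragments in replicate 1, 4.33 in replicate 2), q ≤ 0.05 required a pileup of 10 in replicate 1, a fold of 3.64, and of 15 in replicate 2, a fold of 3.00. The members stood close to these limits, with a median pileup of 10 fragments in replicate 1 (quartiles 9 and 12). In replicate 2 the median was 15 fragments (quartiles 14 and 18). Strong shared pairs had median pileups of 20 and 24.

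A small minority of the weak peaks recurred. Outside the chromosome ends, 33.8% of 73166 replicate 1 peaks and 33.5% of 59779 replicate 2 peaks had q ≤ 0.05. Among the 48402 weaker peaks of replicate 1, 1432 had a partner in replicate 2 at any strength, or 2.96% (exact binomial 95% interval 2.81 to 3.11). For replicate 2, 1528 of 39750 weaker peaks had a partner, or 3.84% (3.66 to 4.04). At q ≤ 0.05 the shares were 13.8% in replicate 1 and 16.6% in replicate 2. Intervals cover counting error only.

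The count of members was set beside the count of pairs that arose when every replicate 2 peak was moved to either side by its own random distance of 20 to 200 kb. Such local shifts keep the widths, the q values and the regional density of the peaks while removing the match of exact position. The comparison belongs to the definition of this set, overlap was itself used to choose the members, and no p-value is given. Over 1000 shifts the mean number of weak shared pairs was 925 (lowest 836, highest 1018), so the 2142 observed were 2.32 times that level. The level after shifts corresponds to 43.2% of the members, and 1217 pairs lay above it. The level depended on how far the peaks were moved: shifts of 5 to 20 kb gave a mean of 989.8 pairs and shifts of 200 kb to 1 Mb a mean of 825, so the number above it is approximate. For strong shared pairs the mean after shifts was 123, and the observed 2725 were 22.2 times as many. Which individual members belong to the part above the shifted level cannot be told from the counts.

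Over all local backgrounds, the excess was smallest where both peaks were weak. Pairs below the threshold in both replicates numbered 828, against a mean of 462 after shifts (398 to 545), a ratio of 1.79. Pairs below it in replicate 1 only numbered 607 against 232 (189 to 302), a ratio of 2.61. Pairs below it in replicate 2 only numbered 707 against 231 (184 to 295), a ratio of 3.06. In each class the observed count was above the highest of the 1000 shifts. The shifted level made up 55.8% of the pairs that were weak in both, 38.3% of those weak in replicate 1 only and 32.7% of those weak in replicate 2 only.

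**Figure D1:**
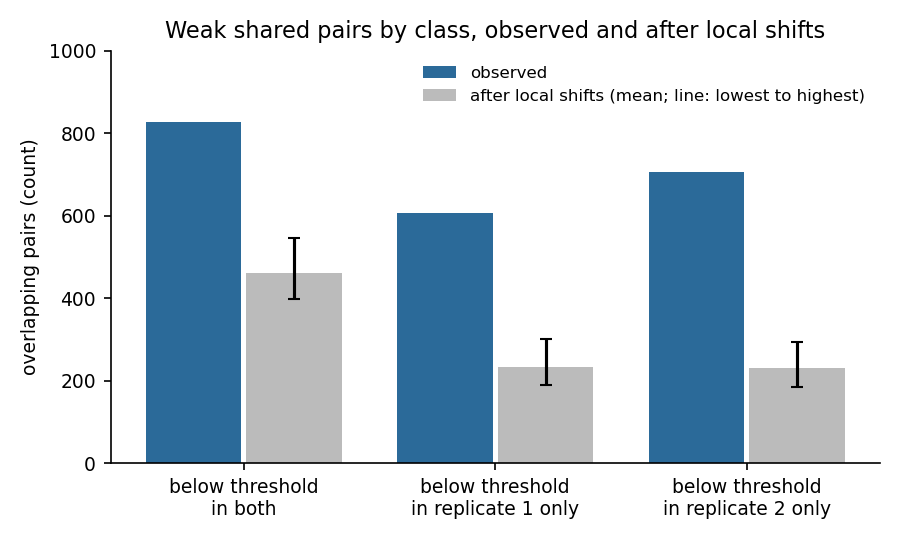
Number of weak shared pairs (vertical axis) in the 3 classes of q, as observed and after local shifts of the replicate 2 peaks by 20 to 200 kb (bars are means of 1000 shifts, lines run from the lowest to the highest). The observed counts of 828, 607 and 707 stand above the highest shifted counts of 545, 302 and 295.

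Below a −log10 p of 4, recurrence showed no rise with the strength of the peak beyond the counting error. In replicate 1 the share of peaks with a partner was 3.44% at a −log10 p from 2 to 2.5 (exact binomial 95% interval 2.61 to 4.44), 2.82% from 2.5 to 3 (2.46 to 3.23), 2.81% from 3 to 3.5 (2.49 to 3.16) and 2.90% from 3.5 to 4 (2.65 to 3.17). In replicate 2 the corresponding shares were 4.43% (3.35 to 5.74), 3.45% (2.95 to 4.01), 3.59% (3.23 to 3.97) and 3.73% (3.40 to 4.08). The intervals of these 4 bins overlap one another within each replicate. Local shifts gave means of 1.40% to 1.46% for these bins of replicate 1, and the observed shares were 1.99 to 2.36 times as high. For replicate 2 the shifted means were 1.67% to 1.75% and the ratios 2.06 to 2.54. From a −log10 p of 4 upwards, a bin that includes the peaks with q ≤ 0.05, the share was 10.1% in replicate 1 and 12.1% in replicate 2, against 1.42% and 1.77% after shifts.

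**Figure D2:**
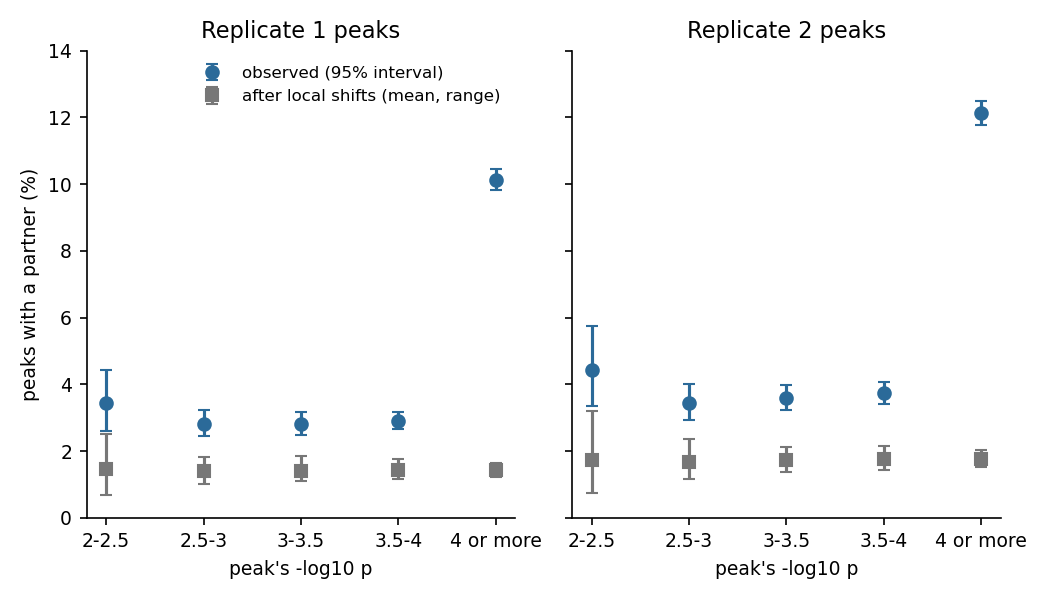
Percentage of peaks that overlap a peak of the other list (vertical axis) by the −log10 p of the peak (horizontal axis), for replicates 1 and 2. Circles are observed shares with exact binomial 95% intervals and squares are means after local shifts with their range over 1000 shifts; the share is level from 2 to 4 and higher only in the last bin.

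Among pairs weak in both replicates, the ratio to the shifted count was also level across the lower −log10 p of the pair. It was 2.06 from 2 to 2.5 (61 pairs), 1.77 from 2.5 to 3 (195 pairs), 1.75 from 3 to 3.5 (259 pairs), 1.77 from 3.5 to 4 (242 pairs) and 1.94 above 4 (71 pairs). Pairs with 1 peak at q ≤ 0.05 had ratios of 2.48 to 3.79 in all bins from 2.5 upwards, and 3.59 (29 pairs weak in replicate 1 only) and 2.84 (20 pairs weak in replicate 2 only) in the lowest.

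Members were enriched about 3-fold in replicate 1 and 2.6-fold in replicate 2. Their median fold enrichment was 3.01 in replicate 1, with quartiles of 2.75 and 3.46. The replicate 2 median was 2.61, with quartiles of 2.36 and 2.81. Since q chose the members, these values are a description. Both replicates reached a fold of 2 at 2030 members (94.8%) and a fold of 3 at 103 (4.81%), all of the latter weak in replicate 1 only. No replicate 2 peak below the threshold exceeded a fold of 2.84, so no other class could reach 3 in both. Strong shared pairs had medians of 5.10 and 3.61.

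In pairs weak in both replicates, the median enrichment was close to that of weak peaks without a partner. These pairs had median folds of 2.95 and 2.47 in replicates 1 and 2. Weak peaks without a partner had 2.96 (46970 peaks) and 2.501 (38222 peaks). Median pileups were 9 fragments in replicate 1 and 14 in replicate 2 in both groups. Both groups lay below the same q threshold, so the closeness of these medians is partly set by the selection. The weak peaks of mixed pairs had lower median folds, 2.83 in replicate 1 (607 pairs) and 2.44 in replicate 2 (707 pairs). Median widths were 197 bp in pairs weak in both and 185 bp without a partner in replicate 1, and 194.5 and 189 bp in replicate 2, and a wider peak has more room to overlap another.

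In mixed pairs, the peak with q ≤ 0.05 had medians between those of strong shared pairs and of such peaks without a partner. Where replicate 2 was weak, the replicate 1 peak had a median fold of 3.70 (quartiles 3.48 and 4.46). That is close to the 3.64 of the 21345 replicate 1 peaks with q ≤ 0.05 and no partner. Where replicate 1 was weak, the replicate 2 peak had a median fold of 3.104 (quartiles 2.92 and 3.38), against 3.00 for 16705 such peaks without a partner. The p values lay further apart than the folds. Median −log10 p was 5.81 against 5.03 without a partner in replicate 1, and 5.49 against 5.23 in replicate 2. Upper quartiles were 8.15 against 5.81 in replicate 1, and 6.70 against 5.81 in replicate 2. Across the 828 pairs weak in both, Spearman's rho between the folds of the 2 replicates was 0.13, against a mean of 0.06 after shifts. The range of that rho over the shifts was not recorded, so whether 0.13 lies outside it cannot be told. Between the −log10 p values of the same pairs rho was −0.008. Both folds in that class are confined to a narrow range by the threshold, and regions are not replicates. Across the 2725 strong shared pairs rho was 0.52 for fold and 0.58 for −log10 p.

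**Figure D3:**
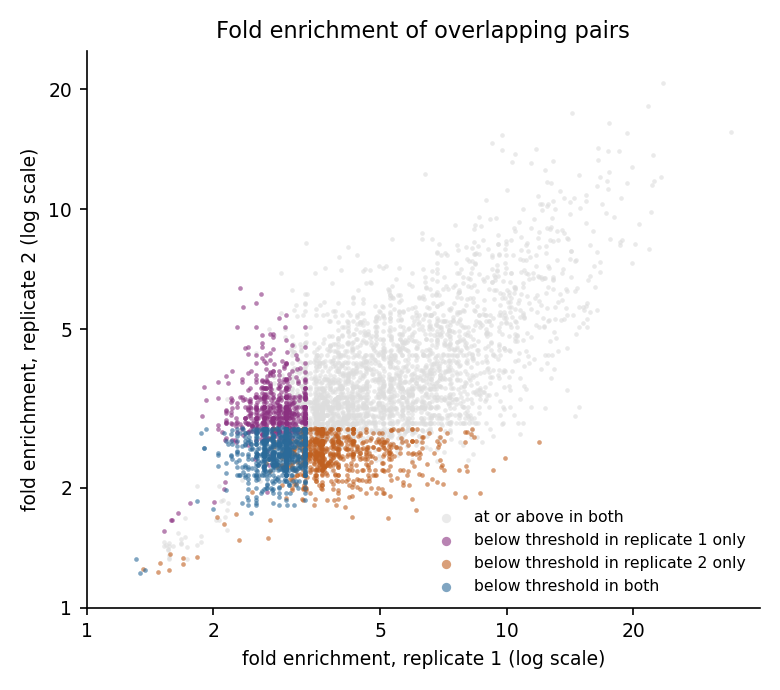
Fold enrichment in replicate 1 (horizontal, log scale) and in replicate 2 (vertical, log scale) of all 4867 overlapping pairs outside the chromosome ends, coloured by class. The pairs weak in both fill a compact area with medians of 2.95 and 2.47, bounded by the q thresholds that defined it, and the mixed classes extend from it along 1 axis each.

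Some mixed pairs were strongly unequal between the experiments. The 3 members with the lowest p in replicate 1 lay on chromosome 7 (77727135 to 77727448), chromosome 20 (49363203 to 49363587) and chromosome 35 (2277164 to 2277574). The first had a pileup of 35 in replicate 1, a fold of 11.9 (exact Poisson 95% interval of the pileup at a fixed background, 8.39 to 16.4). Its pileup in replicate 2 was 16, a fold of 2.61 (1.56 to 4.14). The site on chromosome 20 had folds of 9.92 (6.75 to 14.1) and 2.37 (1.51 to 3.57), and that on chromosome 35 had 9.29 (6.40 to 13.1) and 2.21 (1.36 to 3.43). The summits at these 3 sites lay 15, 65 and 114 bp apart. These members were picked for a low p in 1 replicate, so their inequality follows from the choice. Folds also ran higher in replicate 1 in general, in 84.3% of strong shared pairs, with a median log2 ratio of 0.43.

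The reverse held at the 3 members with the lowest p in replicate 2. On chromosome 10 (33984649 to 33985081) a pileup of 9 in replicate 1 gave a fold of 2.32 (1.19 to 4.19), and a pileup of 36 in replicate 2 gave 6.35 (4.50 to 8.73). On chromosome 21 (37174152 to 37174520) it was 2.35 (1.44 to 3.64) and 5.69 (4.11 to 7.70). The replicate 1 background there was 3.498 times the genome-wide value, so its pileup of 18 fragments stayed below the threshold. The third, on chromosome 1 (25271382 to 25272037), had folds of 2.60 (1.44 to 4.40) and 6.14 (4.41 to 8.34), with summits 334 bp apart. Its replicate 2 peak, 638 bp wide, also overlapped a second replicate 1 peak with q ≤ 0.05, and the nearest strong shared pair lay 0.194 kb away.

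In pairs weak in both, replicate 1 had the higher fold in 727 of 828 cases (87.8%), with a median log2 ratio of 0.23. Bounded by the threshold, the folds of this class reached at most 3.31 in replicate 1 and 2.84 in replicate 2. Weak peaks without a partner had a similar gap, with median folds of 2.96 in replicate 1 and 2.501 in replicate 2. The direction is therefore not particular to these pairs. For pairs weak in both, the intervals of the single members given here were wide. The highest lower-of-the-replicates fold in that class was found on chromosome 1 (115084790 to 115085132), with folds of 2.91 (1.49 to 5.26) and 2.84 (1.66 to 4.56) from pileups of 9 and 15. Next came a site on chromosome 5 (88671964 to 88672265) with folds of 2.83 (1.45 to 5.12) and 2.83 (1.66 to 4.55). On chromosome 31 a single replicate 2 peak, 394 bp wide, overlapped 2 replicate 1 peaks and so gave 2 members (6445499 to 6446106 and 6445713 to 6446192). In replicate 1 their folds were 3.11 (1.59 to 5.63) and 3.15 (1.61 to 5.70), and the shared replicate 2 peak had 2.82 (1.66 to 4.53). The fifth, on chromosome 4 (63227098 to 63227294), had folds of 3.31 (1.69 to 5.98) and 2.82 (1.66 to 4.53), with summits 2 bp apart.

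The 10 members with the highest lower −log10 p were all weak in replicate 2 only, with a −log10 p of 4.52 to 4.54 there, and were therefore ordered by how nearly replicate 2 reached the threshold. No replicate 1 peak below the threshold exceeded a −log10 p of 4.39, so the other classes could not enter this list. Replicate 2 gave them folds of 2.29 to 2.83, and replicate 1 gave 3.49 to 8.37. The site with that highest value, on chromosome 36 (4578895 to 4579322), combined a fold of 8.37 in replicate 1 (5.77 to 11.8) with 2.69 in replicate 2 (1.63 to 4.22), and both summits fell on the same base. Others lay on chromosome 27 (16322213 to 16322627; folds of 7.08 and 2.62) and chromosome 7 (17147850 to 17148140; folds of 6.07 and 2.62). Those on chromosomes 14, 17 (a pair of them), 32, 8, 1 and 23 had folds of 3.49 to 4.62 in replicate 1.

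The pairs nearest to the threshold on either side, picked by q, are given as a description. The member nearest to it, on chromosome 14 (35206969 to 35207264), had folds of 3.61 and 2.69 and a lower −log10 q of 1.2996. Next were sites on chromosome 21 (14209794 to 14210133; folds of 3.14 and 2.89, lower −log10 q of 1.2978) and chromosome 5 (28779534 to 28779730; folds of 3.25 and 3.19, 1.2972). Just past the threshold stood pairs on chromosome 1 (78220790 to 78221102; folds of 5.06 and 2.77, lower −log10 q of 1.3040) and chromosome 10 (26515546 to 26516073 and 55704815 to 55705115; folds of 3.27 and 4.13, and of 3.27 and 2.79, both 1.3043).

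The summits of the members were farther apart than those of strong shared pairs and closer than those of pairs formed by shifts. The median distance was 79 bp (quartiles 34 and 138, highest 450), against a mean of the medians of 107 bp after shifts (97 to 118) and an observed 40 bp in strong shared pairs. Summits lay under 50 bp apart at 34.1% of members (exact binomial 95% interval 32.1 to 36.2) and under 100 bp at 59.9% (57.8 to 62.0), against 58.1% and 85.1% of strong shared pairs.

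By class, with differences between classes not tested, pairs weak in both had a median of 94 bp, within the range of 89 to 121 bp that the shifts gave for that class. Pairs weak in replicate 1 only had 71 bp (81 to 133 after shifts), and pairs weak in replicate 2 only had 68 bp (91 to 140 after shifts). At summit distances under 25 bp, the observed count was 6.42 times the shifted mean for pairs weak in replicate 2 only (164 pairs), 4.50 times for pairs weak in replicate 1 only (117 pairs) and 2.12 times for pairs weak in both (117 pairs). At 200 bp or more the ratios were 1.42, 1.48 and 1.58.

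**Figure D4:**
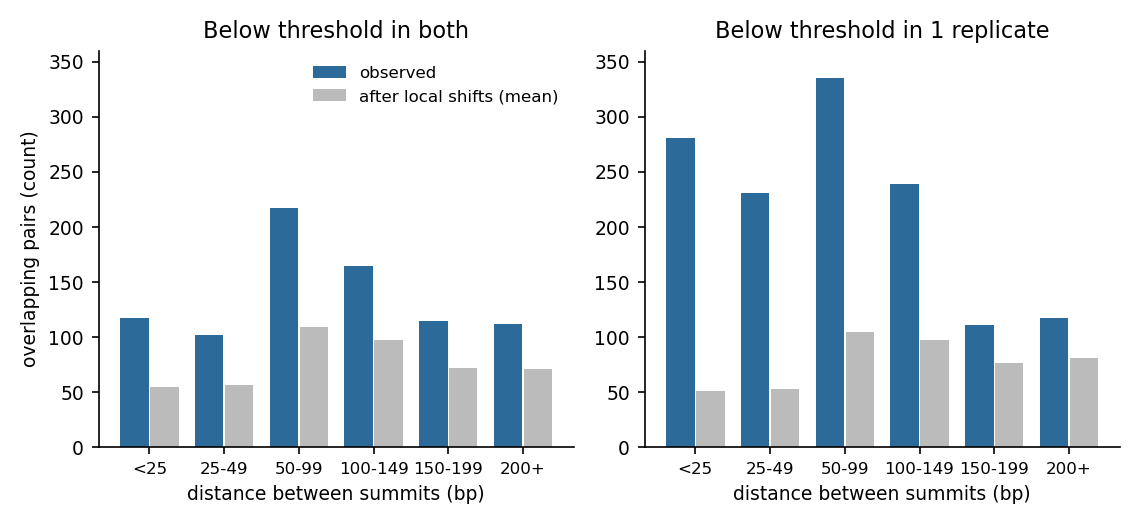
Number of pairs (vertical axis) by distance between the summits of both replicates (horizontal axis, bp), for pairs weak in both (left) and weak in 1 replicate (right), as observed and as the mean of 1000 local shifts. The observed bars exceed the shifted ones 2.12-fold at under 25 bp and 1.58-fold at 200 bp or more on the left; on the right the shortest distances stand out most.

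The shorter summit distances went with longer overlaps. The median overlap of members was 150 bp, against 107 bp after shifts (95 to 117). The ratio of observed to shifted counts rose from 1.42 for overlaps under 50 bp (302 pairs) to 1.55 from 50 to 100 bp, 1.98 from 100 to 150 bp, 3.22 from 150 to 200 bp and 6.52 at 200 bp or more (353 pairs). Overlap and width together limit how far apart summits can lie, so these bins partly fix the summit distance. Within them the observed medians were 181, 121, 79, 49 and 49 bp, and each lay within the range of the medians after shifts (means of 182, 132, 82.2, 53.9 and 61.4 bp).

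Few members lay next to strong shared pairs, but more than after moving the members themselves. Of the 2142 members, 34 (1.59%) had a strong shared pair within 2 kb, measured between the midpoints of the summits, 58 (2.71%) within 5 kb and 87 (4.06%, exact binomial 95% interval 3.27 to 4.99) within 10 kb. Moving the members by 20 to 200 kb gave means of 9.03, 22.2 and 44.2, and highest counts of 20, 41 and 68. Within 50 kb there were 268 members against 209 (179 to 245). The median distance was 429 kb, against 426 kb for the moved members (399 to 447). Only 5 members had a peak in common with a strong shared pair.

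By class, the counts near strong shared pairs stood above the moved ones in the mixed pairs and not in the pairs weak in both; the difference between classes was not tested. Pairs weak in replicate 2 only had a strong shared pair within 10 kb in 42 of 707 cases (5.94%), against a mean of 18.5 when moved (7 to 36). Pairs weak in replicate 1 only had one in 34 of 607 cases (5.60%), against 13.5 (3 to 27). For pairs weak in both the count was 11 of 828 (1.33%), against 12.2 (2 to 23). Within 1 kb of a strong shared pair there were 13 members, against a mean of 4.56 when moved (0 to 12), and 8 of them had no peak in common with such a pair. None of the 828 pairs weak in both lay within 1 kb, where the moved pairs had a mean of 1.24 (0 to 6). By definition such a pair has no peak in common with a strong shared pair, so members with a shared peak are all mixed pairs. Moved pairs can also land on a strong shared pair. The class contrast at this distance is therefore partly fixed by the rule.

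A smaller share of the weak peaks without a partner than of all members lay within 10 kb of a strong shared pair; the difference was not tested. A strong shared pair was within 10 kb of 1.22% of these peaks in replicate 1 (1.13 to 1.33). The replicate 2 share was 0.929% (0.835 to 1.03). Either share was also below the 2.06% of the moved members, which stay in the neighbourhood of the members they come from. The 1.33% of the pairs weak in both (0.665 to 2.36) was close to these shares. The median distance to the nearest strong shared pair was 508 and 519.7 kb for weak peaks without a partner in replicates 1 and 2, 538 kb for the pairs weak in both and 429 kb for all members. Strong shared pairs themselves had another such pair within 10 kb in 10.9% of cases.

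**Figure D5:**
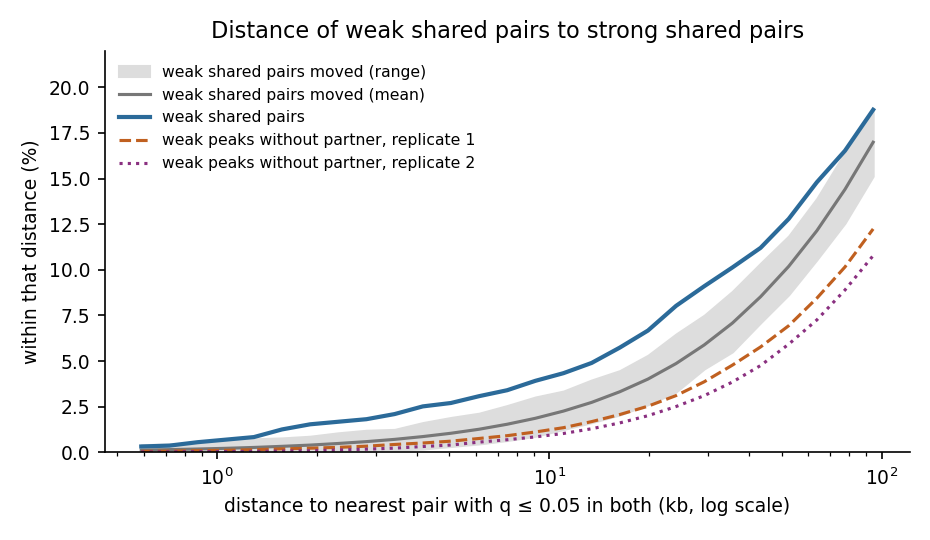
Cumulative percentage (vertical axis) of weak shared pairs within a given distance (horizontal axis, kb, log scale) of the nearest strong shared pair, with the same pairs moved by 20 to 200 kb (mean and range of 1000 moves) and the weak peaks without a partner. At 10 kb the curves stand at 4.06% for the members, 2.06% for the moved members, and 1.22% and 0.929% for weak peaks without a partner in replicates 1 and 2.

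Members were also somewhat clustered among themselves. Of their 2130 loci, 96 (4.51%) had another within 10 kb, against 2.63% when the loci were moved (1.13 to 4.27), and the median spacing was 309 kb.

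The local background at the members was slightly raised in both replicates. As a multiple of the genome-wide minimum, its medians were 1.17 and 1.13 in replicates 1 and 2, against 1.09 and 1.11 for weak peaks without a partner and 1.46 and 1.27 for strong shared pairs. Pairs weak in both had 1.11 and 1.11, close to the weak peaks without a partner. The weak peaks of mixed pairs had 1.22 in replicate 1 and 1.27 in replicate 2. Among the 882 members with a background under 1.2 times the genome-wide value in both replicates, the count was 1.77 times the shifted mean of 498. Among the other 1260 it was 2.95 times the mean of 427. For pairs weak in both the ratio was 1.73 at low background, close to the 1.79 at any background. At low background they therefore hardly differed from all members (1.77), unlike over all backgrounds. Pairs weak in both made up 47.8% of the 882 and 32.2% of the 1260, so these 2 groups also differed in class make-up. At 27 of the 2142 members the background of either replicate reached 5 times its genome-wide minimum. The mean number of such pairs after shifts was 2.39 (highest 9). Of the 27, 4 were weak in both, 9 in replicate 1 only and 14 in replicate 2 only. Strong shared pairs reached that level at 38 of 2725, so it was not particular to the members. The part of the background in the number of members was otherwise not tested.

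Members were spread over all 39 chromosomes, and on each of them they outnumbered the mean after shifts. On 37 chromosomes the count was above the highest of the 1000 shifts. The density ran from 0.491 per Mb on chromosome 26 (19 members) to 1.64 on chromosome 17 (105 members), with a median of 0.884. Chromosome 17 also had the most peaks per Mb in each list outside the chromosome ends, and its 105 members were 2.01 times the shifted mean. The largest ratio, 3.92, was on chromosome 9, with 37 members against 9.45, and the smallest, 1.53, on chromosome 37, with 17 against 11.1 (highest shift 22).

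The X chromosome held as many members as its length would give, unlike the strong shared pairs. It had 114 members, or 0.923 per Mb (exact Poisson 95% interval 0.761 to 1.11), against 0.925 per Mb on the autosomes. The X to autosome ratio of densities was 0.998 for all members, 1.34 for the pairs weak in both, 0.794 and 0.787 for the pairs weak in replicate 1 only and replicate 2 only, and 0.305 for strong shared pairs. The underlying lists of weak peaks had ratios of 1.30 in replicate 1 and 1.26 in replicate 2. Set against local shifts, the 58 X-linked pairs weak in both were 1.82 times the shifted mean of 31.8 (16 to 51), and the autosomal ones were 1.79 times theirs. The 46 strong shared pairs of the X were 7.06 times their shifted mean, against 23.0 times on the autosomes. The mixed pairs of the X were 1.74 times (weak in replicate 1 only, 26 pairs) and 2.23 times (weak in replicate 2 only, 30 pairs) the shifted mean, against 2.67 and 3.11 on the autosomes. These differences between chromosomes were not tested.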

How the data were processed

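ChIP-seq peak lists of 2 TWIST1 libraries were analysed; the 2 input libraries were not used other than through the peak statistics. The submitters' processing notes name the tools Bowtie2, Picard and MACS2 and the build CanFam3.1. Versions, filters and the pairing of inputs with ChIP libraries were not given in the sources used here. Peak lists were deposited 1 per library, in narrowPeak format. The deposited fold enrichment is a ratio at the summit with 1 added to pileup and background. The −log10 values of p and q, also deposited, come from MACS2. Another deposited column, the summit offset, is a distance in bases. Pileup and background were recovered from fold and p; 100% of pileups in each list were within 0.05 of a whole number. Read totals were not at hand, and the recovered backgrounds stand for depth.

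Pairs, local shifts (1000, seed 7, turned to the other side at list ends) and distances were computed with pandas 2.3.3, scipy 1.17.1 and numpy 2.4.6 under Python 3.11.15, and checked on simulated data. In repeated simulated lists without shared sites the count varied around the shifted mean and stood slightly above it on average, so the number of pairs above shifts may be slightly too high. All results are descriptions of 2 libraries, with no test. Members, classes and named regions were chosen with earlier results of these data known. The named regions were the 10 members with the highest lower −log10 p, the 5 pairs weak in both with the highest lower fold, for each replicate the 3 members of lowest p whose partner was below the threshold, and 3 pairs on each side of the threshold. Sequence and gene annotation of this build were not used here, so motifs and nearest genes are not given.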

Additional observations from a re-analysis of the deposited data

How the results depend on the processing

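A pair needs both lists, so no replicate could be left out. The count of 2142 members became 1296 when summits within 100 bp replaced overlap. The ratio to shifts (2.32) rose to 2.99 with an overlap of 50% of the shorter peak, 2.97 with summits within 100 bp, 2.80 at a q threshold of 0.01 and 2.60 with shifts of 200 kb to 1 Mb. It fell to 2.13 at a q threshold of 0.1, 2.16 with shifts of 5 to 20 kb and 1.77 at backgrounds under 1.2 times the genome-wide value in both replicates, an alternative added after the data were seen. For pairs weak in both (1.79), whose alternatives were added after the data were seen, it was 2.01, 1.96, 1.98 and 2.05 under the first 4 of these settings and 1.67 with shifts of 5 to 20 kb. The median summit distance (79 bp) was 57.5 bp with the larger overlap, 43 bp with the summit limit and 71 bp at a q threshold of 0.01. The percentage within 10 kb of a strong shared pair (4.06%) was 5.27% at a q threshold of 0.1 and 6.33% with chromosome ends included; within 2 kb it was 1.59% and within 50 kb 12.5%. Median folds were 3.27 and 2.70 at a q threshold of 0.01, and 2.95 and 2.47 for pairs weak in both. Alternatives used 200 shifts each, or 38 common distances where all replicate 2 peaks moved together. Leaving out pairs of high background, the X, or chromosomes 14 and 17, keeping 1 pair per peak, moving all replicate 2 peaks together or moving replicate 1 instead left the count within 1.5 times (1950 to 2126 where it was recomputed) and the other values recomputed within their counting intervals. Low pileups limit single members most: at a pileup of 9 the interval of the fold spans more than 3-fold.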

Other observations

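The chromosome ends held 86 further weak pairs, 29 of them below the threshold in both replicates, which were not members. In replicates 1 and 2 their median folds were 1.89 and 1.61, from median pileups of 39.5 and 82 fragments. Their median backgrounds were 9.33 and 11.3 times the genome-wide value, and 71 of the 86 had at least 5 times that value in either replicate. Across the 2142 members, Spearman's rho between the backgrounds of the 2 replicates was 0.49, over regions that share 1 pair of libraries. After shifts its mean was 0.25 (0.14 to 0.34). In pairs weak in both it was 0.381, within the range after shifts (0.081 to 0.388). It was 0.505 in pairs weak in replicate 1 only (0.035 to 0.432) and 0.575 in those weak in replicate 2 only (0.041 to 0.483). Strong shared pairs had 0.424, also within their range (−0.004 to 0.529). Differences between classes were not tested.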
